A study of Homo sapiens with 12 samples.

Results

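The comparison of 5 µM colforsin daropate with vehicle used 6 of the 12 libraries of the series, 3 per group, with 48 h of exposure in every library. Membership was set by the labels alone, as the libraries whose labels give 5 µM or 0 µM of the drug. All libraries came from HEYA8, a long-established line of human ovarian cancer cells, grown in culture, so the results describe 1 line. Libraries of each group carry the numbers 6, 8 and 11 in their titles, and each 5 µM library was paired with the like-numbered vehicle library. The remaining 6 libraries, at 1 and 10 µM, served to estimate the spread between libraries and to test the neighbouring doses against 5 µM. The series concerns the reuse of this drug against ovarian carcinomas that depend on MYC.

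Forskolin, a plant diterpene, activates adenylyl cyclases directly, and colforsin daropate was made from it as a form that dissolves in water. The cyclases make cyclic AMP (cAMP), which releases the catalytic subunits of protein kinase A from their regulatory subunits. The kinase phosphorylates the transcription factor CREB, which binds the cAMP response element in the promoters of its targets. Phosphodiesterases degrade cAMP, and several of their genes are themselves induced by the messenger, so the pathway carries its own brake.

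Levels are given as normalised read counts recovered from the authors' variance-stabilised values, in the order of label numbers 6, 8 and 11. Differences are 5 µM minus vehicle on the stabilised log2 scale with their standard error. Every adjusted p comes from limma with Benjamini-Hochberg adjustment over 17767 genes, with the label number as a block, and a gene is said to have risen or fallen only where that adjusted p was under 0.05. From a stabilised value of 10 upwards the deposited values step by 0.1, so equal high counts in several libraries reflect that rounding.

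Depth in the 6 libraries was 24.0 to 48.6 megareads on genes. Vehicle library 6 had the fewest reads and stood apart from vehicle 8 and 11 in its cell cycle genes: the mean level of 34 G2/M and mitosis genes was 11.1, 8.97 and 8.67 in vehicle and 10.3, 9.65 and 9.23 at 5 µM. The 10 most abundant genes took 8.39%, 6.51% and 7.49% of gene reads in vehicle and 11.2%, 10.1% and 8.75% at 5 µM, higher in 3 of 3 pairs. The share of reads with no unique alignment was lower in 3 of 3 pairs, at 20.5%, 23.7% and 25.6% against 19.3%, 19.7% and 21.95%. The part of these shares in the results was not tested. Of the epithelial and ovarian markers, PAX8, KRT7, KRT8 and KRT18 were abundant, whereas EPCAM had 5.396 to 10.6 counts and KRT19 0.783 to 16.97 over the 6 libraries. WT1, MSLN and SOX17 had 82.4 to 485 counts, CLDN4 24.7 to 48.8 and ESR1 2.21 to 7.12. CD24 was at 0 to 3.07 counts in vehicle and 11.6 to 20.5 at 5 µM, and no values were found for MUC16, FOLR1, CDH1 and CLDN3. The mesenchymal markers VIM, CDH2, FN1, ZEB1, SPARC, AXL and NT5E were abundant, whereas S100A4 had 8.64 to 16.97 counts and was below the filter for testing. Of the markers with enough reads to test, 3 of 9 epithelial and ovarian ones rose and 2 fell (PAX8, KRT7 and CD24 against KRT8 and KRT18), and 3 of 7 mesenchymal ones rose and 2 fell. Blood cell markers were near 0, with at most 7.54 counts of PTPRC, 3.20 of CD14 and 13.6 of CD79A in any of the 6 libraries. The endothelial marker CDH5 reached 1725 to 7585 counts, its difference of 0.70 did not pass the test (adjusted p = 0.104), and VWF fell from 210.0, 144 and 135 counts to 66.8, 69.9 and 64.5. PECAM1, at 7.12 to 113 counts, and KDR, at 55.9 to 132, differed by 0.27 and -0.24 and did not pass the test. In such bulk RNA, fewer cells of a type and less RNA per cell cannot be told apart.

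At 5 µM, 2712 genes (15.3% of those tested) were higher than in vehicle and 2724 (15.3%) were lower. Differences of at least 1 on the log2 scale were fewer, with 252 genes higher (1.42%) and 147 lower (0.827%). Of the genes called, 2647 of the higher and 2665 of the lower moved the same way in all 3 pairs. The call was made on these same pairs, so this follows largely from it and is no separate support. The levels of the 6 libraries did not overlap between groups for 2641 genes above vehicle (14.9%) and 2548 below (14.3%). The median difference over all genes tested was -0.0033, and the median standard error was 0.0990. Without the block the counts were 1362 higher (7.67%) and 1322 lower (7.44%), and all of these 2684 genes were also called with it. Without number 6 the counts were 2656 (14.9%) and 2626 (14.8%), whereas without number 8 they were 1155 (6.50%) and 1018 (5.73%), and without number 11 they were 1043 (5.87%) and 1007 (5.67%). Counts for the gene lists below are therefore given higher first and lower second, also for the fit without the block and with each number left out. They are to be read against these shares of all genes.

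**Figure D1:**
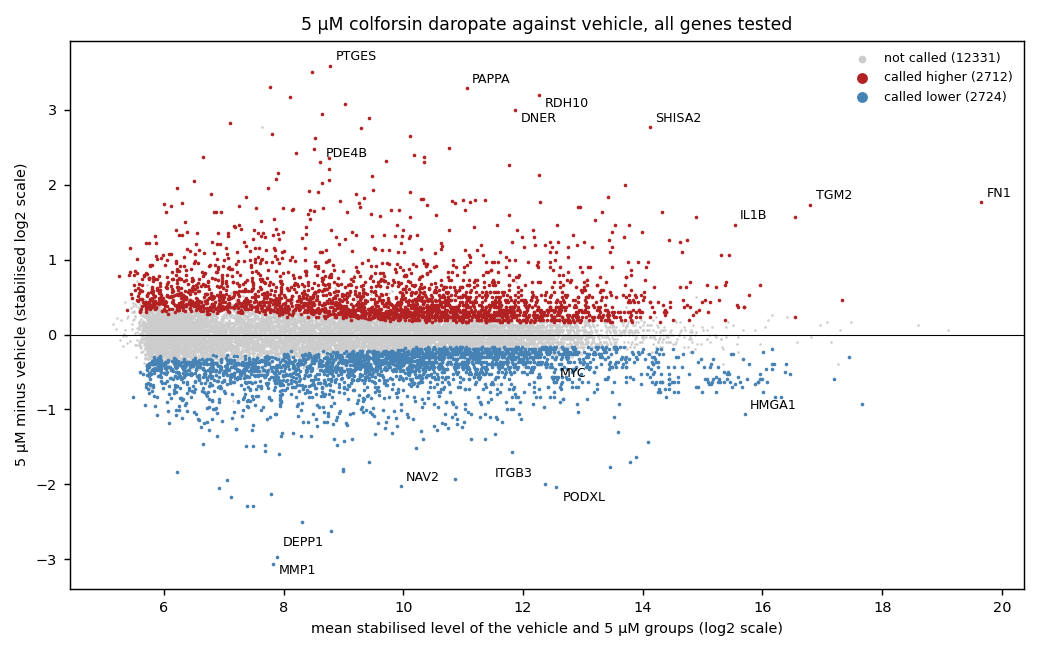
Difference between 5 µM colforsin daropate and vehicle (vertical axis, stabilised log2 scale) against the mean stabilised level of both groups (horizontal axis, log2 scale), 1 point per gene tested. Red points are the 2712 genes called higher, blue points the 2724 called lower and grey points the genes not called; FN1 stands far to the right at a difference of 1.77, and PTGES and MMP1 mark the largest changes in each direction.

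Genes of the cAMP pathway were examined first. Transcripts of cAMP phosphodiesterases rose more often than they fell: of 13 tested of 16 listed, 7 were higher and 3 lower (4 and 2 without the block, and 7 and 2, 6 and 1, or 5 and 1 with number 6, 8 or 11 left out). The median difference was 0.32, against -0.0033 over all genes, and 15.3% of all genes were called in each direction. PDE4B, a cAMP-specific phosphodiesterase, had 116, 141 and 115 counts in vehicle and 866, 786 and 786 at 5 µM, a rise of 2.30 ± 0.10 (adjusted p = 1.77e-08). The 3 treated libraries lay close together and far above the 3 vehicle libraries. PDE4D, of the same family, rose from 3269, 4332 and 4647 counts to 7073, 9352 and 10027, a difference of 1.10 in each of the 3 pairs (adjusted p = 6.67e-06). PDE3A, a phosphodiesterase that cyclic GMP inhibits, was near the floor in vehicle at 6.32, 6.32 and 4.07 counts and reached 304, 83.3 and 78.1 at 5 µM. Number 6 gave the highest PDE3A count of the treated libraries, and all 3 exceeded every vehicle library (adjusted p = 5.49e-05). Separate groups are likely in members named for a small p, and 14.9% of all genes tested lay above vehicle without overlap. PDE7B, PDE8A, PDE7A and PDE10A also rose, by 1.33, 0.37, 0.48 and 0.32, of which PDE7B, PDE7A and PDE10A were not called without the block and PDE7A and PDE10A overlapped between groups. In the other direction, PDE2A, which cyclic GMP stimulates, fell by 1.10, from 2644, 5347 and 5735 counts to 1725, 2137 and 2137 (adjusted p = 5.57e-05), and PDE11A and PDE4A fell by 0.54 and 0.32.

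Established CREB targets moved in both directions. Of 30 tested of 33 listed, 13 rose and 10 fell (9 and 7 without the block, and 13 and 8, 11 and 5, or 10 and 5 with number 6, 8 or 11 left out), with a median difference of 0.16. Among the risen targets, BDNF, a neurotrophin, went from 804, 967 and 1119 counts to 3046, 3508 and 3508, a difference of 1.75 ± 0.08 (adjusted p = 2.36e-08). The dual-specificity phosphatase DUSP1, which inactivates MAP kinases, rose from 4985, 6150.3 and 6150.3 to 16326, 17502 and 20113 counts. IL6 rose from 421, 507 and 698 to 2644, 2644 and 3269 counts, and all 3 treated libraries were above all 3 of vehicle for these 3 genes. SCG2, a secretory granule protein, had 15.7, 11.6 and 4.07 counts in vehicle and 596, 217 and 219 at 5 µM, a 32.9-fold difference of group means. VGF, a neuropeptide precursor, rose by 1.69 ± 0.14 and ID1 by 1.33 ± 0.12, yet neither passed without the block (adjusted p = 0.0708 and 0.0581). ID1, an inhibitor of helix-loop-helix factors, had 925, 299 and 343 counts in vehicle and 2137, 925 and 967 at 5 µM, so that vehicle 6 reached the level of treated library 8. CREM, a CREB relative, rose by 0.53 ± 0.06, and RGS2, a regulator of G protein signalling, by 1.13. The targets that fell included immediate early transcription factors. KLF4 went from 729.7, 872 and 775 counts to 168, 324 and 316, EGR1 from 667, 918 and 1040.0 to 158, 383 and 396 and the orphan nuclear receptor NR4A1 from 208, 294 and 324 to 117, 136 and 145. In all 3 the highest treated library was below the lowest vehicle library. Members were named for a small p or after their values were seen, which makes such separation likely, also for BDNF, DUSP1 and IL6. Of all genes tested, 14.9% lay above and 14.3% below vehicle without overlap. JUNB, ATF3 and NR4A3 fell by 0.42, 0.46 and 0.51, NR4A3 at an adjusted p of 0.0495. FOS differed by 0.03 and did not pass the test.

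Promoter sequence was looked up for the named genes and the called CREB targets. RefSeq windows (GRCh38.p14, 250 bases before to 50 after the gene start) were found for 11641 of the 17767 genes tested, and were searched for the full cAMP response element TGACGTCA, which reads the same on both strands. It was present in 3.24% of the windows of tested genes, in 3.17% of those called higher, 3.17% of those called lower and 3.27% of those not called. Of the 26 CREB targets with a window, 3 (11.5%) held it. A match is a description of letters and does not show that a factor was bound. The 250 bases before the start are printed for the risen genes FN1, DUSP1 and VGF and for AREG, an EGF receptor ligand, which fell (-0.51 ± 0.13, adjusted p = 0.00886, 0.49 without the block) with the same letters in its promoter. Capitals mark the element, and each sequence reads 5′ to 3′ on the strand of the gene.
FN1 (chr2:215436069-215436318, minus strand): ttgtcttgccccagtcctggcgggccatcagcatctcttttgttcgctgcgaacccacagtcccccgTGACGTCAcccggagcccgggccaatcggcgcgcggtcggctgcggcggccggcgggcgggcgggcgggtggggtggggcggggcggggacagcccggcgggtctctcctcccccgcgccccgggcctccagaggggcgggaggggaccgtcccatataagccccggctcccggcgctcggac
DUSP1 (chr5:172771196-172771445, minus strand): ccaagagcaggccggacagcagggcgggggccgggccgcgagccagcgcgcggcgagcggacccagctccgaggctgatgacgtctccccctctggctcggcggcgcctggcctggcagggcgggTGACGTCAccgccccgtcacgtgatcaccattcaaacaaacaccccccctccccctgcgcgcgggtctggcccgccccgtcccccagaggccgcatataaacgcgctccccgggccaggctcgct
VGF (chr7:101165570-101165819, minus strand): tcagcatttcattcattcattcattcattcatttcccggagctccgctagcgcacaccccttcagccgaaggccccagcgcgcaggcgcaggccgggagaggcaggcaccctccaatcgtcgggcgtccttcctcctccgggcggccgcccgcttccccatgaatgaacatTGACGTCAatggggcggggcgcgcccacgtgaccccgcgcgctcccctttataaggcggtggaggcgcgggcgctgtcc
AREG (chr4:74444886-74445135, plus strand): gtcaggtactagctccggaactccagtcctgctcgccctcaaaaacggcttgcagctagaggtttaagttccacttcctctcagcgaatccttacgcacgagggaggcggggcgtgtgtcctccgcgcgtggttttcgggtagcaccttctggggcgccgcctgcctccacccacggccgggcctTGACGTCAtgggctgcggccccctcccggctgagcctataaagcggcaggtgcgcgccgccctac
The element started 183, 125, 79 and 65 bases before the gene start in FN1, DUSP1, VGF and AREG. It was thus present in genes called in opposite directions.

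Genes that make cAMP or carry its signal were called less often than the phosphodiesterases, a difference that was not tested. Of 24 tested cyclases, kinase A subunits, anchors, inhibitors and coactivators, 2 rose and 5 fell (1 and 4 without the block, and 6 and 5, 2 and 1, or 2 and 1 with number 6, 8 or 11 left out), with a median difference of 0.017. These are 8.33% and 20.8%, beside 15.3% of all genes in each direction. POPDC3, a cAMP-binding membrane protein of the Popeye family, rose from 703, 775 and 780.3 to 1119, 1494 and 1725 counts (adjusted p = 1.74e-05). The cyclase ADCY9 rose by 0.42 ± 0.07, with overlapping groups and an adjusted p of 0.321 without the block, and the cyclase ADCY3 fell by 0.64. AKAP1, which anchors kinase A to mitochondria, fell from 2137, 2838 and 3046 to 1494, 1853 and 1853 counts, and the regulatory subunit PRKAR2B fell by 0.52. The catalytic subunits PRKACA and PRKACB differed by -0.07 and 0.27 and CREB1 by 0.13, none of which passed the test.

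Among genes called both with and without the block that moved the same way in all 3 pairs, the 15 with the largest rises began with PTGES, FGFBP1, ACKR3 and PAPPA. PTGES (ENSG00000148344, chromosome 9, 129738331 to 129753047, minus strand) encodes the synthase of the last step to prostaglandin E2. It had 57.3, 90.7 and 78.9 counts in vehicle and 1040.0, 1494 and 1990.2 at 5 µM, a 19.9-fold difference of group means and a rise of 3.59 ± 0.12 (adjusted p = 3.08e-09). Every treated library was more than 10 times above every vehicle library. FGFBP1 (ENSG00000137440, chromosome 4, 15935569 to 15938740, minus strand), a carrier that releases fibroblast growth factors from the matrix, had 16.97, 85.1 and 89.8 counts in vehicle and 527, 1391 and 1990.2 at 5 µM. Number 6 was the lowest library in both groups, and the 3 pairs differed by 3.25, 3.40 and 3.85. ACKR3 (ENSG00000144476, chromosome 2, 236567787 to 236582358, plus strand), a scavenging receptor for the chemokine CXCL12, went from 110.1, 9.10 and 3.34 counts to 1203, 392 and 515, with number 6 the highest in both groups. PAPPA (ENSG00000182752, chromosome 9, 116153804 to 116402322, plus strand), a metalloprotease that cleaves the IGF-binding protein IGFBP4, rose from 455, 719 and 746 to 7585, 6150.3 and 6150.3 counts, 10.4-fold in group means. PAPPA-AS1, an antisense gene inside PAPPA, rose by 3.07 ± 0.16. Whether the counting used strand was not given in the sources used here, so its reads cannot be told apart from those of PAPPA.

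RDH10, which oxidises retinol to retinaldehyde, rose from 2295, 1294 and 1294 to 18762, 13249.8 and 13249.8 counts (difference 3.20 ± 0.09, adjusted p = 1.14e-09). LPAR1 (ENSG00000198121, chromosome 9, 110873263 to 111038458, minus strand), a receptor for lysophosphatidic acid, went from 105, 19.02 and 29.5 counts to 953, 548 and 853. DNER, a transmembrane protein with EGF repeats, rose from 1119, 1294 and 1391 to 9352, 10027 and 12359 counts, and its 3 pairs differed by 3.0, 2.90 and 3.10. ADAMTS5, a protease of cartilage proteoglycan, had 365, 35.7 and 36.3 counts in vehicle and 2644, 708 and 600.2 at 5 µM. Number 6 was far above 8 and 11 in both groups, the 3 pairs differed by 2.68, 3.19 and 2.96, and the adjusted p was 9.35e-09 with the block and 0.0415 without it. SHISA2, a membrane protein that restrains WNT and FGF receptors, rose from 8722, 5347 and 6596 to 53174, 40284 and 46283 counts. None of these 5 genes overlapped between groups, which their choice by size of change makes likely. Of all genes tested, 14.9% lay above vehicle without overlap. The export pump ABCC3 rose from 253, 170.0 and 175 to 2838, 1494 and 1391 counts, the immune ligand SECTM1 by 2.75 ± 0.17 and HGD, an enzyme of tyrosine breakdown, by 2.67 ± 0.11.

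**Figure D2:**
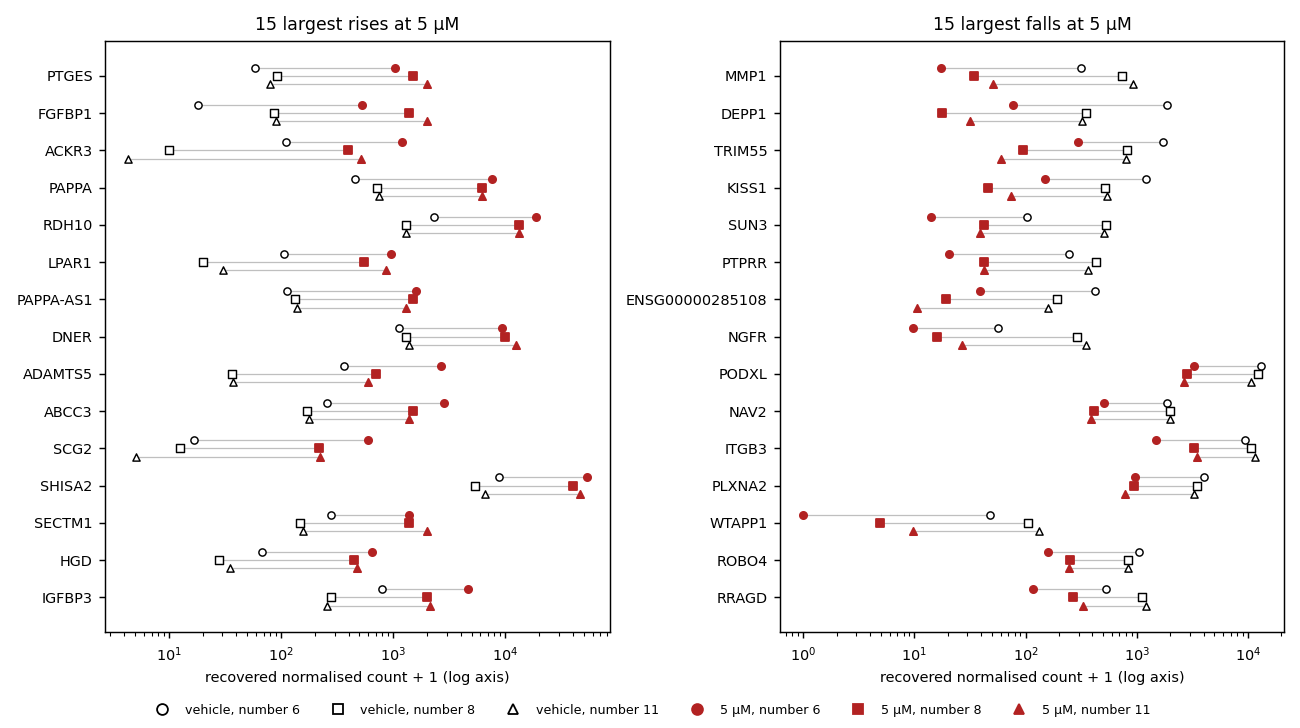
Recovered normalised counts (plus 1, log axis) of the 15 genes with the largest rise (left) and the 15 with the largest fall (right) at 5 µM, among genes called with and without the block that moved the same way in all 3 pairs. Open black symbols are vehicle and filled red symbols 5 µM, with 1 symbol shape per label number and a line joining each pair; all lines run to the right on the left side and to the left on the right side.

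The 15 largest falls, ranked among genes chosen in the same way, began with MMP1 and DEPP1. MMP1 (ENSG00000196611, chromosome 11, 102789920 to 102798160, minus strand), the interstitial collagenase, went from 314, 729.7 and 918 counts in vehicle to 16.3, 33.7 and 50.01 at 5 µM, 19.6-fold lower in group means (difference -3.06 ± 0.22, adjusted p = 1.21e-06). WTAPP1, a transcribed pseudogene that overlaps MMP1 on the opposite strand, fell as well, from 46.9, 104 and 129.9 to 0, 3.92 and 8.64 counts, and its reads may not be separable from those of MMP1. DEPP1, a protein linked to autophagy, fell from 1853, 348 and 324 to 76.4, 16.6 and 30.9 counts. Vehicle 6 was far above the other vehicle libraries, and all 3 pairs fell. KISS1 (ENSG00000170498, chromosome 1, 204190341 to 204196486, minus strand), the kisspeptin precursor first described as a metastasis suppressor, fell from 1203, 515 and 535 to 149.6, 44.5 and 73.1 counts (adjusted p = 1.21e-06). PTPRR, a tyrosine phosphatase that acts on MAP kinases, fell from 247, 428 and 365 to 19.4, 41.6 and 41.6 counts. NGFR (ENSG00000064300, chromosome 17, 49495293 to 49515017, plus strand), the low-affinity neurotrophin receptor, went from 55.9, 292 and 351 counts to 8.64, 15.1 and 25.97; vehicle 6 was the lowest vehicle library and still above all treated ones.

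PODXL, an anti-adhesive sialomucin, fell from 13249.8, 12359 and 10751 to 3269, 2838 and 2644 counts, with differences of -2.0, -2.10 and -2.0 in the 3 pairs. ITGB3 (ENSG00000259207, chromosome 17, 47253846 to 47311816, plus strand), the integrin beta subunit of the vitronectin receptor, fell from 9352, 10751 and 11527 to 1494, 3269 and 3508 counts, deepest in number 6. PLXNA2, a semaphorin receptor, fell from 4038, 3508 and 3269 to 967, 953 and 786 counts, NAV2, a cytoskeletal protein of growing axons, from 1853, 1990.2 and 1990.2 to 507, 415 and 389, and ROBO4, a guidance receptor of endothelium, from 1040.0, 840.4 and 834 to 159.5, 251 and 247. RRAGD, a GTPase that couples amino acids to mTORC1, fell from 527, 1119 and 1203 to 116, 266 and 327 counts. In every one of these genes the 3 treated libraries were below the 3 vehicle libraries, which their choice by size of change makes likely. Of all genes tested, 14.3% lay below vehicle without overlap. TRIM55, SUN3 and the long noncoding RNA ENSG00000285108 completed these 15, at -2.63, -2.29 and -2.17.

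Several of the most abundant transcripts changed too, and are given as stabilised log2 levels. FN1 (fibronectin, an adhesive glycoprotein of the matrix) had levels of 19.4, 18.5 and 18.4 in vehicle and 20.7, 20.7 and 20.2 at 5 µM, a rise of 1.77 ± 0.17 (adjusted p = 1.35e-05). TGM2, the tissue transglutaminase that cross-links matrix proteins, rose from 16.2, 15.8 and 15.8 to 18.3, 17.3 and 17.4, and TFPI2, an inhibitor of serine proteases in the matrix, from 15.2, 16 and 16.1 to 17.4, 17.2 and 17.4. IL1B rose from 14.4, 14.9 and 15.1 to 16, 16.2 and 16.6 and ASPH, a hydroxylase of EGF-like domains, from 15.3, 14.7 and 14.7 to 16.2, 15.9 and 15.8. In the other direction, the chromatin protein HMGA1 fell from 16, 16.3 and 16.4 to 14.8, 15.2 and 15.5. ITGA6, an integrin chain that binds laminins, fell by 1.43 and ESM1, a secreted proteoglycan, by 1.63. NDRG1, a stress-responsive protein, fell from 15, 13.8 and 13.9 to 12.7, 12.9 and 13.2, with an adjusted p of 0.00125 that became 0.0514 without number 8.

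Cytokine genes moved in both directions. Of 22 interleukins, chemokines and their receptors tested, 10 rose and 8 fell (9 and 3 without the block, and 10 and 9, 8 and 2, or 8 and 2 with number 6, 8 or 11 left out), with a median difference of -0.13. IL11, a cytokine of the IL6 family, rose from 828, 591 and 628 to 5347, 2838 and 4332 counts (adjusted p = 1.22e-06), and LIF, of the same family, from 1119, 1494 and 1391 to 2137, 2463 and 3046. The receptor IL1R1 rose from 118, 49.4 and 70.7 to 708, 507 and 677 counts. CSF3, which drives granulocyte formation, rose by 1.37 ± 0.19, the neutrophil attractants CXCL8 by 1.17 ± 0.24 and CXCL1 by 0.90 ± 0.24, and CXCL1 was not called without the block (adjusted p = 0.221). On the falling side, TNF went from 327, 268 and 253 to 124, 102 and 101 counts (adjusted p = 1.47e-04) and IL32 from 535, 657 and 708 to 235, 231 and 271. CCL20, which attracts T cells, fell by 1.17. CXCL2 and CXCL3, close relatives of CXCL1, fell by 0.64 and 0.78, but not in number 6, and were not called without the block (adjusted p = 0.103 and 0.0986). Genes of the CXCL1 family share much of their sequence, so their counts are less certain. TNFSF15 had 62.3, 834 and 911 counts in vehicle and 42.2, 70.7 and 55.2 at 5 µM, with pair differences of -0.31, -2.87 and -3.20, so that the fall lay mainly in numbers 8 and 11 (adjusted p = 0.00444, 0.0529 without the block).

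Around PTGES, the prostaglandin genes showed no common direction. Of 11 tested, 3 rose and 3 fell (1 and 1 without the block, and 3 and 2, 2 and 0, or 2 and 0 with number 6, 8 or 11 left out). PTGS2, the inducible cyclooxygenase upstream of PTGES, differed by 0.65 (adjusted p = 0.12) and was not called, although its treated libraries lay above those of vehicle. The prostaglandin E2 receptor PTGER4, which signals through cAMP, rose by 0.84 ± 0.09 and the prostacyclin synthase PTGIS by 0.43 ± 0.11, both with overlapping groups and not called without the block. The prostacyclin receptor PTGIR fell by 0.63, PTGES3, a cochaperone also known as a prostaglandin synthase, by 0.27 and ABCC4, which exports prostaglandins and cAMP, by 0.27.

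The IGF axis had 7 risen and 1 fallen of 14 tested genes (5 and 1 without the block, and 7 and 2, 5 and 1, or 6 and 1 with number 6, 8 or 11 left out), with a median difference of 0.43. IGFBP3, the main carrier of IGFs, rose from 786, 275 and 253 to 4647, 1990.2 and 2137 counts (difference 2.65 ± 0.11, adjusted p = 1.77e-08). IGFBP4, the substrate of PAPPA, rose from 6150.3, 6150.3 and 6596 to 13249.8, 10751 and 11527 counts and STC2, an inhibitor of PAPPA, from 3046, 2295 and 2463 to 4332, 4332 and 4985. The receptor substrates moved apart: IRS1 rose by 0.73 ± 0.13 while IRS2 fell from 1119, 1040.0 and 1119 to 469.8, 569 and 504 counts. The receptor IGF1R differed by -0.13 and was not called.

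Retinoid genes rose in 9 of 13 tested cases, of 21 listed, and fell in 0 (7 and 0 without the block, and 9 and 0, 6 and 0, or 5 and 0 with number 6, 8 or 11 left out), with a median of 0.43. Beside RDH10, DHRS3, which turns retinaldehyde back to retinol, rose from 3764, 4038 and 4332 to 7073, 7073 and 8722 counts (adjusted p = 2.08e-06). ALDH1A3, which forms retinoic acid, rose by 0.63 ± 0.06, CYP26B1, which degrades it, by 0.84 ± 0.09, and the receptor RARB by 0.74 ± 0.08. Enzymes that form and enzymes that remove the hormone were thus both among the risen genes.

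Receptors and enzymes of lysophospholipids had 6 higher and 3 lower of 15 tested (3 and 3 without the block, and 6 and 3, 5 and 3, or 4 and 3 with number 6, 8 or 11 left out), and the receptors differed in direction. LPAR1 rose as described, whereas LPAR3 fell from 905, 1119 and 1119 to 469.8, 587 and 619 counts and LPAR5 from 84.2, 105 and 127 to 21.6, 33.7 and 18.3. PLPP3, a phosphatase that degrades the ligand, rose from 1203, 596 and 687 to 2644, 1391 and 1606 counts (adjusted p = 5.88e-07, 0.0505 without the block). Of the sphingosine 1-phosphate receptors, S1PR3 rose by 0.71 ± 0.14 and S1PR2 fell by 0.67. Among 14 ABC efflux pumps, 5 rose and 1 fell (2 and 0 without the block, and 5 and 1, 4 and 0, or 5 and 0 with number 6, 8 or 11 left out). Next to ABCC3, the drug pumps ABCB1 and ABCG2 rose from 23.5, 17.98 and 17.3 to 90.7, 60.1 and 55.2 and from 102, 33.2 and 21.2 to 304, 109 and 68.3 counts, low levels in both groups. ABCG2 overlapped between groups and was not called without the block (adjusted p = 0.147).

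Matrix and adhesion genes rose more often than they fell, with 20 higher and 7 lower of 38 tested (10 and 4 without the block, and 17 and 7, 12 and 5, or 17 and 4 with number 6, 8 or 11 left out) and a median difference of 0.31. SPARC, a matrix-binding glycoprotein, rose from 10751, 7585 and 7073 to 32709.8, 16326 and 16326 counts (adjusted p = 4.52e-07). The collagen chains COL6A1 and COL5A2 rose by 1.47 ± 0.14 and 0.94 ± 0.10, with number 6 the highest in both groups. COL1A1 went from 106, 13.6 and 28.6 counts to 746, 139 and 144 but was not called without the block (adjusted p = 0.11). The integrin chain ITGB8 had 1203, 29.5 and 47.5 counts in vehicle and 2644, 452 and 441 at 5 µM. All 3 pairs rose, yet vehicle 6 exceeded the treated libraries of 8 and 11 (adjusted p = 0.306 without the block). ITGB3 and ITGA6, given above, were among the deepest falls of the group, and the laminin chain LAMA4 stood at -0.73 ± 0.09 (adjusted p = 8.90e-05, 0.071 without the block).

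Proteases and their inhibitors moved in both directions, with 10 higher and 6 lower of 21 tested (8 and 4 without the block, and 9 and 6, 7 and 3, or 6 and 4 with number 6, 8 or 11 left out). The gelatinase MMP9 fell with MMP1, from 435, 127 and 183 to 82.4, 28.6 and 44.5 counts (adjusted p = 1.99e-05). PLAT, the tissue plasminogen activator, rose from 1725, 822 and 798 to 3508, 3508 and 4332 counts and PLAU, the urokinase, rose by 0.43. Of the tissue inhibitors of metalloproteases, TIMP2 rose by 0.43 and TIMP3 fell by 0.97. MMP2, another gelatinase, rose from 4.71, 3.62 and 0.851 to 7.54, 21.2 and 17.3 counts, a few reads in either group.

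Of 16 tested regulators and junction genes of the epithelial to mesenchymal transition, 4 rose and 3 fell (4 and 1 without the block, and 4 and 3, 4 and 2, or 4 and 2 with number 6, 8 or 11 left out). These are 25% and 18.8%, beside 15.3% of all genes in each direction, so the fallen share is near that of all genes. N-cadherin (CDH2) rose from 2838, 2137 and 1990.2 to 6596, 4985 and 4985 counts (adjusted p = 6.53e-08) and R-cadherin (CDH4) from 2644, 3269 and 3269 to 6596, 7073 and 7585. CDH6 rose from 216, 29.5 and 24.7 to 672, 371 and 296 counts. The tight junction protein CLDN1 rose by 0.97 ± 0.13, and vimentin (VIM), the intermediate filament of mesenchymal cells, fell by 0.93. The regulators ZEB1, ZEB2, SNAI1, SNAI2 and TWIST1 differed by -0.10, -0.17, 0.09, 0.03 and -0.20, none of which passed the test, while TWIST2 fell by 0.66. Mesenchymal markers moved in both directions, since CDH2, FN1 and SPARC rose and VIM and the receptor kinase AXL fell.

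In the TGF-beta and BMP list, 12 genes rose and 2 fell of 26, with a median of 0.25 (7 and 2 without the block, and 12 and 4, 8 and 0, or 9 and 1 with number 6, 8 or 11 left out). INHBA, the activin A subunit, rose from 20113, 11527 and 12359 to 37582, 32709.8 and 32709.8 counts (adjusted p = 9.84e-06). The signal carriers SMAD2 and SMAD3 rose by 0.70 ± 0.08 and 1.30 ± 0.09. LTBP1, which holds latent TGF-beta in the matrix, rose from 314, 859 and 840.4 to 2295, 2463 and 2137 counts, and the ligand TGFB2 rose from 6.32, 2.68 and 5.76 to 74.7, 26.8 and 26.8. TGFB1 and the BMP antagonist GREM1 were the members that fell, by 0.37 and 0.80. Targets of YAP and TEAD, the effectors of Hippo signalling, had 8 higher and 4 lower of 19 (6 and 2 without the block, and 11 and 4, 5 and 1, or 4 and 2 with number 6, 8 or 11 left out). Their classical target CCN2 had pair differences of -0.70, 0.50 and 0.20 and was not called, TEAD1 rose by 0.60 ± 0.10 and TEAD4 fell by 0.84. Among SRF targets and actin genes 2 rose and 3 fell of 18 (2 and 2 without the block, and 5 and 4, 2 and 1, or 2 and 3 with number 6, 8 or 11 left out). Their shares of 11.1% and 16.7% are near the 15.3% of all genes in each direction. MYLK, the myosin light chain kinase, fell from 9352, 11527 and 12359 to 4332, 5735 and 6150.3 counts (adjusted p = 5.95e-07), and the non-muscle myosin MYH9 rose by 0.53 ± 0.09.

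MYC, the transcription factor named in the aim of the series, fell from 6150.3, 7585 and 8134 counts in vehicle to 4038, 4985 and 4985 at 5 µM. The 3 pairs differed by -0.60, -0.60 and -0.70, the groups did not overlap, and the difference of -0.63 ± 0.08 had an adjusted p of 1.17e-04 (0.0309 without the block). Its dimer partner MAX rose by 0.20 ± 0.07 and MXD4, a repressor that competes for MAX, by 0.40 ± 0.08, neither of which was called without the block. MGA, another partner of MAX, fell by 0.37. Of 40 established MYC targets, 2 rose and 16 fell (2 and 2 without the block, and 3 and 19, 2 and 3, or 2 and 3 with number 6, 8 or 11 left out), with a median of -0.20. These are 5% and 40%, beside 15.3% of all genes in each direction. Of all genes, 7.44% were lower without the block, 5.73% without number 8 and 5.67% without number 11. In those 3 fits the fallen MYC targets were thus about as frequent as fallen genes in general. The nucleolar proteins FBL and NPM1 were the members that fell in both fits: FBL from 2838, 2463 and 2463 to 1203, 1294 and 1391 counts and NPM1 by 0.63. NCL, NOP58 and DKC1, also of the nucleolus, fell by 0.23, 0.23 and 0.27. Against the rest of the list, ODC1, which makes the polyamine putrescine, rose by 1.07 ± 0.13 and the folate carrier SLC19A1 by 0.61 ± 0.08.

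Cytosolic ribosomal protein transcripts fell as a group: 74 of 78 were lower and 0 higher, against 15.3% of all genes in each direction. Their median difference was -0.60, with medians of -0.50, -0.70 and -0.60 in the 3 pairs. The counts were 0 and 62 without the block, and 0 and 73, 0 and 63, or 0 and 68 with number 6, 8 or 11 left out. RPSA went from 15229, 18762 and 17502 counts to 8722, 8722 and 9352 (adjusted p = 1.38e-06), RPS16 from 17502, 15229 and 18762 to 7073, 8134 and 8722 and RPL22 from 6150.3, 6150.3 and 6596 to 3508, 4038 and 3764. Those not called included RPL28, RPS26 and RPL17, at -0.30, -0.17 and 0.06. Many ribosomal protein genes have processed pseudogenes of nearly the same sequence, so their counts are less certain than those of other genes.

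Of 34 translation factors, 2 rose and 20 fell (0 and 12 without the block, and 3 and 18, 0 and 13, or 0 and 9 with number 6, 8 or 11 left out). The elongation factor EEF1A1 fell by 0.60, the poly(A)-binding protein PABPC1 by 0.67 and the initiation factor EIF4B from 49609, 53174 and 53174 to 32709.8, 32709.8 and 35062 counts. EIF5 and EIF4G2 rose by 0.40 and 0.20, with overlapping groups and no call without the block. Small nucleolar RNA host genes rose in 0 and fell in 12 of 23 cases (0 and 5 without the block, and 0 and 14, 0 and 9, or 0 and 7 with number 6, 8 or 11 left out). SNHG6 went from 4985, 4985 and 5347 to 2137, 2644 and 2838 counts (adjusted p = 3.34e-06), SNHG29 fell by 0.77, and GAS5 fell by 0.57 with overlapping groups.

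Replication genes that changed were lower, with 1 exception. Of 46 tested, 1 rose and 14 fell (1 and 7 without the block, and 2 and 15, 1 and 5, or 1 and 4 with number 6, 8 or 11 left out), with a median of -0.28. The pair medians were -0.50, -0.13 and -0.18. CDCA7 fell from 1725, 1494 and 1391 to 719, 752 and 582 counts, CDT1, which loads the replicative helicase, from 306, 259.6 and 266 to 149.6, 132 and 104, and PCNA, the sliding clamp, from 4647, 4647 and 4985 to 3764, 3764 and 3508. CDK2, the kinase that drives entry into S phase, was that exception and rose from 1725, 1391 and 1391 to 3046, 2838 and 2838 counts (adjusted p = 3.84e-06). Of 11 CDK inhibitors and D-type cyclins, 2 rose and 2 fell (1 and 0 without the block, and 3 and 2, 1 and 0, or 1 and 0 with number 6, 8 or 11 left out). Either direction is 18.2%, near the 15.3% of all genes. CDKN1C, an inhibitor of cyclin-dependent kinases, rose from 452, 229 and 229 to 1853, 866 and 959.5 counts, 4.04-fold in group means (adjusted p = 6.93e-08). CDKN1A, a related inhibitor, fell by 0.40 with pair differences of 0.00, -0.70 and -0.50 and an adjusted p of 0.239 without the block.

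G2/M and mitosis genes had no common direction across the pairs. Of 34 tested, 1 rose, CDC25B, and 0 fell, and the pair medians were -0.83, 0.66 and 0.59 for numbers 6, 8 and 11. CDC25B was not called without the block. Without number 6, whose vehicle library had the high level of these genes given above, 24 rose and 0 fell, whereas 0 and 0 rose without number 8 and without number 11. PLK1, a mitotic kinase, differed by 0.61 over all pairs and did not pass the test, with pair differences of -0.59, 1.06 and 1.35.

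Most sterol genes fell. Of 25 genes of cholesterol synthesis and uptake, 2 were higher and 18 lower (1 and 11 without the block, and 1 and 15, 0 and 11, or 0 and 15 with number 6, 8 or 11 left out), with a median of -0.43. HMGCS1 went from 2838, 2838 and 2838 counts to 1119, 1203 and 1294, 2.36-fold lower in group means (adjusted p = 1.08e-07). MSMO1, a sterol oxidase, and SQLE, the squalene epoxidase, fell by 1.13 and 0.83. SREBF2, the transcription factor that drives these genes, fell from 2463, 2644 and 2644 to 822, 1294 and 1494 counts, and INSIG1, which retains it in the endoplasmic reticulum, by 1.06. The 2 members that rose were TM7SF2 and LBR, both sterol reductases of the late pathway, at 0.40 and 0.47.

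Most targets of NRF2, the transcription factor of the antioxidant response, rose. Of 22 antioxidant genes tested, 18 were higher and 0 lower, with a median of 0.66 (15 and 0 without the block, and 18 and 1, 14 and 0, or 15 and 0 with number 6, 8 or 11 left out). NQO1, a quinone reductase, rose from 8134, 14205 and 13249.8 to 40284, 35062 and 32709.8 counts and TXNRD1, the thioredoxin reductase, from 13249.8, 20113 and 20113 to 49609, 53174 and 53174. The cystine transporter SLC7A11 rose from 3764, 8134 and 9352 to 23112, 32709.8 and 24775 counts. GCLM, a subunit of the enzyme that starts glutathione synthesis, rose by 1.22 ± 0.07 (adjusted p = 2.61e-07). The enzymes PGD and TALDO1 of the pentose phosphate pathway, a source of NADPH, rose by 0.70 and 1.23. HMOX1, haem oxygenase, rose by 0.32 and was not called without the block (adjusted p = 0.247), and NFE2L2, which encodes NRF2 itself, differed by 0.17 and was not called.

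**Figure D3:**
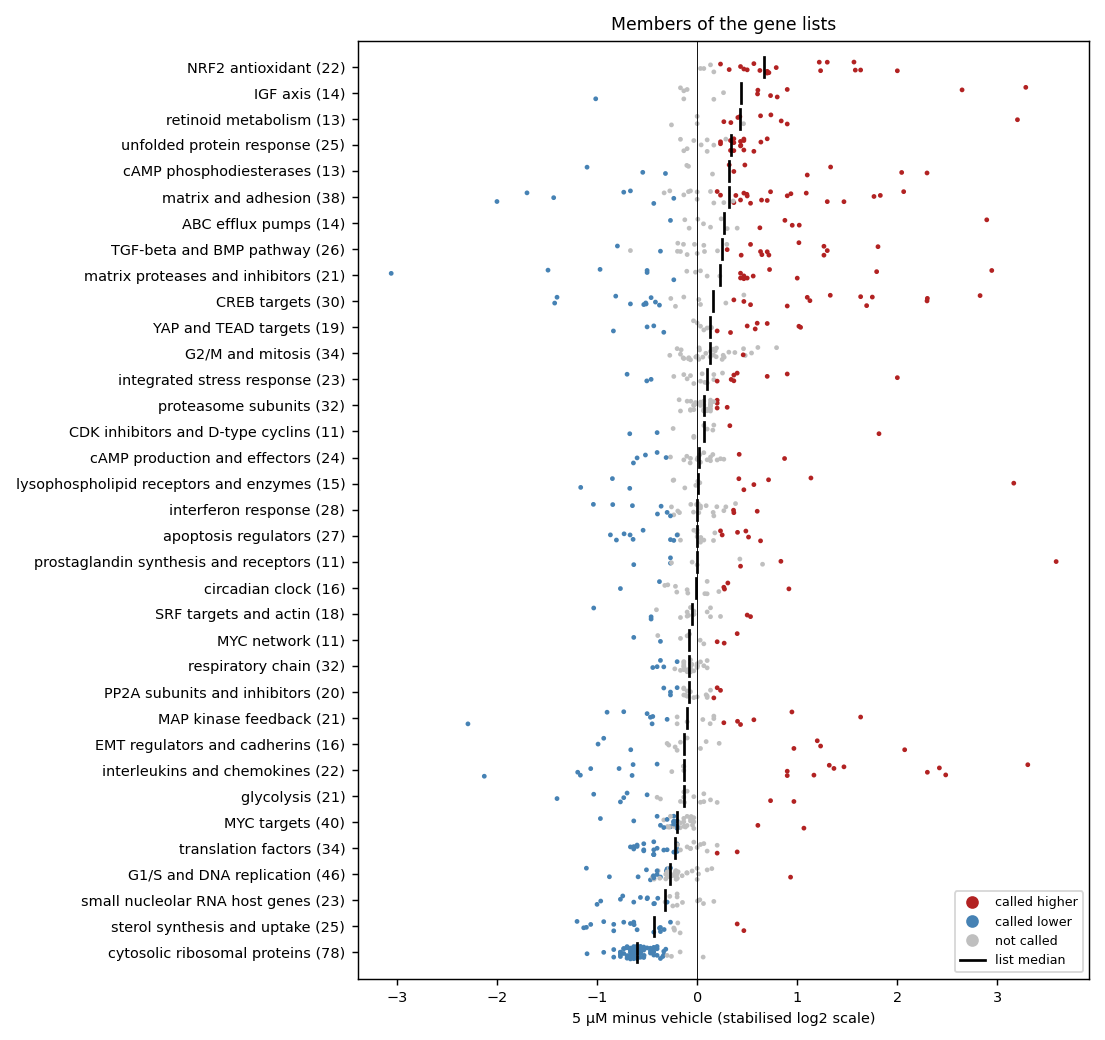
Difference between 5 µM and vehicle (horizontal axis, stabilised log2 scale) for every tested member of the gene lists shown, 1 row per list with its number of genes, ordered by the list median (black bar). Red and blue points passed the test and grey points did not; the NRF2 list has its median at 0.66 at the top and cytosolic ribosomal proteins at -0.60 at the bottom.

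Chaperones and export factors of the endoplasmic reticulum rose modestly, with 16 of 25 higher, 0 lower and a median of 0.33 (10 and 0 without the block, and 16 and 1, 9 and 0, or 7 and 0 with number 6, 8 or 11 left out). SEC24D, a coat protein of export vesicles, rose by 0.70 in each of the 3 pairs (adjusted p = 1.26e-06). The chaperones CANX, CALR and HSP90B1 rose by 0.47, 0.37 and 0.43 and the transcription factor XBP1 by 0.47. HSPA5, the most widely used marker of this response, differed by -0.10 and was not called. In the integrated stress response 8 of 23 genes rose and 3 fell (3 and 1 without the block, and 8 and 5, 3 and 1, or 5 and 1 with number 6, 8 or 11 left out). The fallen share of this list was below the 15.3% of all genes called lower, so falls were no more frequent here than in general. The members that fell were PPP1R15A, DDIT3 and ATF3, at -0.70, -0.50 and -0.46. PPP1R15A encodes a phosphatase subunit that ends the response, and DDIT3 and ATF3 are transcription factors downstream of ATF4. Of these, PPP1R15A and DDIT3 overlapped between groups and were not called without the block. ATF4, the central factor of the response, differed by 0.17 and was not called. The risen members were led by the amino acid transporters SLC7A11 and SLC3A2, at 2.0 and 0.70, and by DDIT4, an inhibitor of mTORC1, at 0.90.

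In glycolysis 2 of 21 genes rose and 6 fell (1 and 4 without the block, and 4 and 6, 2 and 3, or 2 and 6 with number 6, 8 or 11 left out). The hexokinases HK1 and HK2 fell from 8722, 10027 and 10751 to 4985, 6150.3 and 7073 and from 3269, 3046 and 2838 to 1119, 1725 and 1606 counts. The enolase ENO2 fell by 1.40 and PDK1, which inhibits pyruvate dehydrogenase, by 0.77. The lactate exporter SLC16A3 rose from 13249.8, 11527 and 12359 to 23112, 21561 and 28468 counts (adjusted p = 6.97e-06). GAPDH and PKM, abundant enzymes of the pathway, differed by 0.13 and 0.20 and were not called.

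Feedback genes of the MAP kinase pathway were divided, with 6 higher and 8 lower of 21 (3 and 5 without the block, and 7 and 8, 3 and 5, or 4 and 5 with number 6, 8 or 11 left out). DUSP4 rose with DUSP1, by 0.95 ± 0.07, whereas the ERK phosphatase DUSP6 fell by 0.50 with overlapping groups and the inhibitor SPRY4 from 5347, 5347 and 5347 to 2295, 3046 and 3269 counts (adjusted p = 7.97e-06). FOSL1, an AP-1 subunit, fell from 4038, 4647 and 4647 to 2463, 2463 and 3046 counts. Among apoptosis regulators 6 rose and 9 fell of 27 (2 and 3 without the block, and 6 and 7, 2 and 4, or 1 and 3 with number 6, 8 or 11 left out). These are 22.2% and 33.3%, beside 15.3% of all genes in each direction. Without the block, where few members were called, 7.67% of all genes were higher and 7.44% lower. The survival genes BCL2L1 and BCL2 fell, BCL2L1 from 6150.3, 10027 and 10751 to 4038, 4985 and 5347 counts and BCL2 from 284, 418 and 383 to 168, 221 and 198. The death-promoting BBC3 fell by 0.67 and BCL2L11 rose by 0.51 ± 0.11, neither of which was called without the block (adjusted p = 0.138 and 0.147).

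The 5 µM libraries were also tested directly against 1 µM. At 5 µM 446 genes (2.51%) were higher and 476 (2.68%) lower than at 1 µM. The largest rise was FGFBP1, with 78.1, 314 and 374 counts at 1 µM and 527, 1391 and 1990.2 at 5 µM, a difference of 2.13 ± 0.12 (adjusted p = 4.69e-06). IGFBP3 followed, with 1494, 377 and 556 and 4647, 1990.2 and 2137 counts, and the pseudogene NMRAL2P with 165, 199 and 217 and 925, 905 and 757. LPAR1, TRIM16L and SCG2 were higher by 1.63, 1.58 and 1.57. In the other direction, SIGLEC15, a sialic acid receptor, had 4985, 3046 and 2644 counts at 1 µM and 1725, 1294 and 1040.0 at 5 µM (difference -1.33 ± 0.12, adjusted p = 7.87e-05). DEPP1, ITGB3, MMP1 and the noncoding RNA ENSG00000283265 were lower by 1.33, 1.27, 1.27 and 1.28. PAEP, the secreted protein glycodelin, had 6596, 2463 and 2137 counts at 1 µM and 657, 703 and 866 at 5 µM, a difference of -2.07 ± 0.47 with an adjusted p of 0.0263. Of these 12 genes, NMRAL2P and TRIM16L were also called without the block, at 6.18e-04 and 6.18e-04, whereas the adjusted p of the others was 0.119 to 0.616, with 0.226 for FGFBP1 and 0.234 for PAEP. Against vehicle the 3 pairs of PAEP differed by -3.32, -0.53 and -0.35, so that most of the fall lay in number 6.

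The gene lists were read against these shares of 2.51% and 2.68% of all genes. Of the NRF2 list, 15 of 22 were higher at 5 than at 1 µM, and of the cytosolic ribosomal proteins 55 of 78 were lower. MAP kinase feedback genes had 2 higher and 6 lower of 21, replication genes 1 and 7 of 46. The list of the epithelial to mesenchymal transition had 4 and 2 of 16, and G2/M genes 0 and 0 of 34. Not every list is given, and these list counts are from the fit with the block only. The mean level of the NRF2 list was 11.6, 11.8 and 11.8 at 1 µM and 12.3, 12.2 and 12.3 at 5 µM. Of the sterol list 1 of 25 was higher and 0 lower, and its mean level was 10.2, 10.2 and 10.2 at 1 µM and 10.0, 10.1 and 10.2 at 5 µM. FN1 had levels of 20.6, 20.3 and 20.4 at 1 µM and 20.7, 20.7 and 20.2 at 5 µM, a difference of 0.10 ± 0.17 that did not pass the test, and IL1B differed by 0.33 ± 0.12. MYC was lower at 5 than at 1 µM by 0.27 on the log2 scale with an adjusted p of 0.0849, which misses the threshold. The number of all genes called between 5 and 1 µM changed with the block and with the libraries used, and the cause was not tested. Without the block 55 genes (0.310%) were called. There were 702 without number 6, 16 (0.0901%) without number 8 and 15 (0.0844%) without number 11. With any 1 of the 6 libraries of both doses left out, 271 to 490 were called. When only those 6 libraries entered the limma fit, 0 were called.

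**Figure D4:**
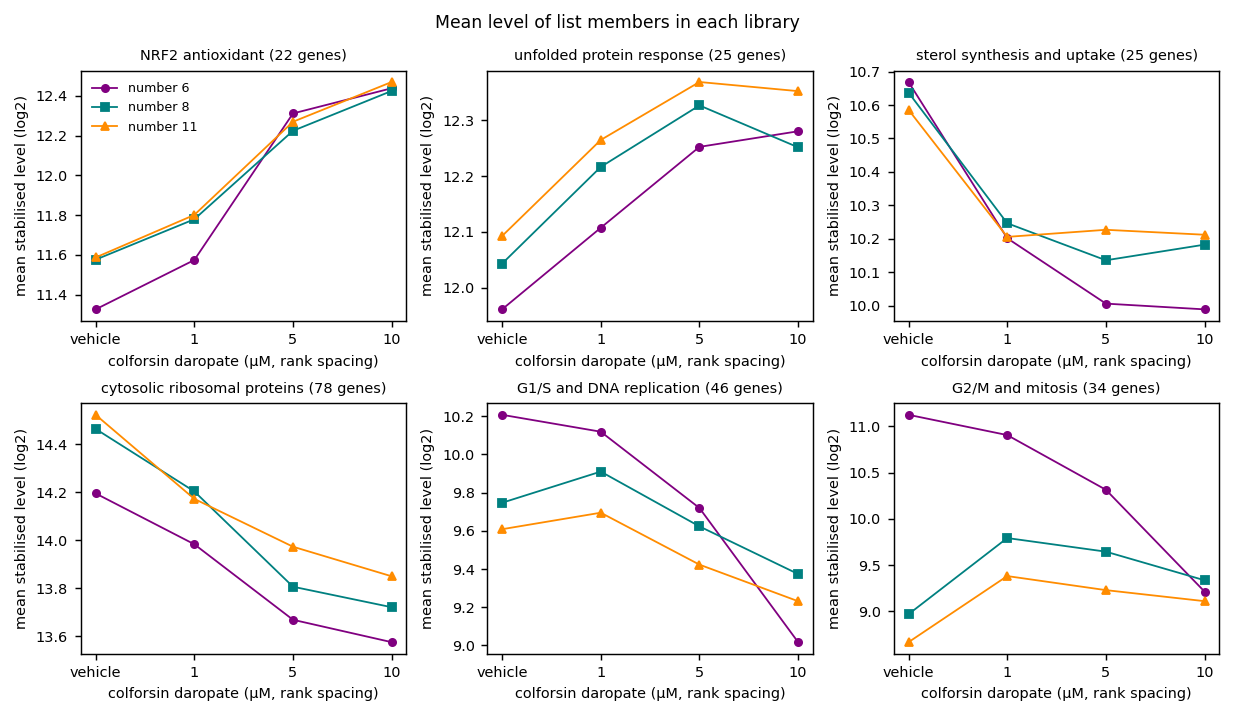
Mean stabilised level (vertical axis, log2) of 6 gene lists in each of the 12 libraries against dose (horizontal axis, vehicle, 1, 5 and 10 µM at rank spacing), with 1 line per label number. The NRF2 lines climb between 1 and 5 µM, the sterol lines drop mainly between vehicle and 1 µM, and in the G2/M list number 6 starts at 11.1 in vehicle while numbers 8 and 11 start at 8.97 and 8.67.

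Between 10 and 5 µM, 99% of genes differed by less than 0.481, against 1.33 between 5 µM and vehicle, with a median standard error of 0.0998. With the block, limma called 1 gene, ALOX5AP, which presents arachidonic acid to 5-lipoxygenase, at a share of 0.00563% of genes tested, with 828, 1990.2 and 2137 counts at 5 µM and 523, 1294 and 1391 at 10 µM (difference -0.60 ± 0.06, adjusted p = 0.00611). Against vehicle it differed at 5 µM by -0.64 ± 0.06, from 1294, 3269 and 3269 counts in vehicle, with overlapping groups and an adjusted p of 0.464 without the block. At an unadjusted p under 0.05, 1652 genes differed between 10 and 5 µM. A fit of limma with voom on the recovered counts called 16 genes, and limma without the block called 0. The comparison of 5 with 1 µM and that of 10 with 5 µM share the 5 µM libraries with the comparison against vehicle, so their values are given side by side.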

How the data were processed

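RNA of HEYA8 cells was measured by total RNA sequencing after ribosomal depletion, per the labels' protocols. The authors deposited 1 table of variance-stabilised log2 values, made with DESeq2 on the GRCh38 (hg38) build per the submitters' processing notes. The sources used here name no aligner, counter, strand setting or annotation. Of 21211 rows, 4 named no gene (reads unassigned, ambiguous, unaligned or not uniquely aligned) and were left out. Genes held the other 33.9% to 36.7% of the reads of a library. The deposited values are rounded to 3 digits, in steps of 0.01 below 10 and 0.1 from there (30.9% of values), which limits small differences of abundant genes. Inverting the stabilising curve (floor 4.8636) returned whole reads, within 0.005, for 99.8% of 94873 values below 7, against 34.1% with wrong depths, and gave the normalised counts and the depths printed. 

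Genes more than 1 above the file minimum of 4.86 in at least 3 libraries were tested (17767). The limma fit (version 3.58.1, R 4.3.3) took every library of the series, with terms for dose group and label number, a trended prior and 6 residual degrees of freedom. Labels do not say what a number marks. Deviations from the group means correlated between vehicle and 5 µM libraries of the same number at r = 0.618, 0.380 and 0.530, and at 0.316 to 0.777 over all pairs of groups, so the numbers were taken to pair the libraries. Vehicle 8 with 5 µM 11 correlated at 0.355 and vehicle 11 with 5 µM 8 at 0.320. Between number 6 and another number the values were -0.592 to -0.392. The deviations thus set number 6 apart but barely separate 8 from 11. With known changes simulated at these sample sizes, 59.7%, 94.0% and 98.5% of changed genes were called at differences of 0.5, 1 and 2 (67, 67 and 66 genes). There were 11 false calls among the unchanged genes of the 17767. Only those genes were changed, in the 5 µM group alone, with independent noise and an additive effect of the number. The simulation therefore does not cover changes in many genes at once or drug effects that differ between numbers.

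Named genes were the 15 largest rises and falls called with and without the block and moving alike in 3 pairs, the 5 most abundant such genes in each direction with a difference of at least 1, MYC, up to 5 members per list with the smallest p, members that read against their list, and the 6 largest changes in each direction between doses. Other members are named by choice after their values were seen, and some members are not reported here. The comparison, the gene lists and the members were chosen with earlier results of these data known. Alternatives were no block, 6 libraries only, other filters, quantile or median scaling, array weights, voom on the recovered counts, and leaving out libraries or numbers.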

Additional observations from a re-analysis of the deposited data

How the results depend on the processing

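For the difference of 5 µM from vehicle, the alternatives were followed for MYC and for the genes named by the size of their change, their abundance or their difference between doses, not for those named only as list members. Among the genes followed none reversed, 785 values kept their direction and their side of the threshold, and 10 fell short of it. Most of these genes had been chosen as called with and without the block and moving alike in 3 pairs. That choice fixed part of this outcome in advance, so the tally does not measure how stable other genes are. Without the replicate block 1362 genes were higher and 1322 lower at 5 µM, and with only the 6 libraries of both groups 1157 and 1096. Leaving out a library or a number gave 1043 to 2656 higher and 1007 to 2655 lower genes. For 5 against 1 µM, 55 genes were called without the block, 0 with the 6 libraries of both doses (limma), 2170 with array weights and 15 to 702 when a library or number was left out. For 10 against 5 µM the counts were 0 without the block, 0 with 6 libraries, 2 with no filter, 3 after median scaling, 10 with array weights, 16 with voom and 0 to 1 with a library or number left out. The cause of these shifts was not tested, beyond the fewer samples in the fits that leave libraries out. PAEP missed the threshold in 7 fits (adjusted p 0.0729 to 0.252), NDRG1 in 2 (0.0514 without number 8, 0.0985 with 6 libraries) and ALOX5AP in 1 (0.464 without the block). Steps of 0.1 above a level of 10 limit how small a change of an abundant gene can be resolved.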

Other observations

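Among 28 interferon response genes 3 rose and 7 fell (1 and 2 without the block, and 3 and 7, 1 and 2, or 1 and 1 with number 6, 8 or 11 left out), against 15.3% of all genes called in each direction. IRF1 rose from 1725, 1391 and 1494 to 2137, 2295 and 2644 counts, and OAS3, a sensor of double-stranded RNA, fell by 0.65. IFI44L and IFI44 fell by 1.04 and 0.84 with overlapping groups.

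The clock repressors BHLHE40 and BHLHE41 moved apart, BHLHE40 from 7585, 7585 and 7585 to 3764, 4332 and 5347 counts and BHLHE41 from 708, 392 and 408 to 1294, 878 and 792, within a clock list of 4 higher and 2 lower of 16 (1 and 1 without the block, and 6 and 2, 1 and 1, or 1 and 1 with number 6, 8 or 11 left out). The clock shares of 25% and 12.5% stand beside 15.3% of all genes in each direction. PER1, a clock gene induced by CREB, fell by 0.38 and was not called without the block. Subunits of the phosphatase PP2A and its inhibitors had 3 higher and 4 lower of 20 (1 and 1 without the block, and 2 and 2, 0 and 0, or 0 and 0 with number 6, 8 or 11 left out). At 15% and 20%, this list was called about as often as all genes, at 15.3% in each direction. The inhibitor SET fell by 0.20 and PTPA, an activator, rose by 0.23 ± 0.06. Proteasome subunits had 4 higher and 0 lower of 32 (1 and 0 without the block, and 5 and 1, 0 and 0, or 0 and 0 with number 6, 8 or 11 left out), all of them changes of at most 0.30. Respiratory chain genes had 0 higher and 5 lower of 32 (0 and 3 without the block, and 0 and 5, 0 and 3, or 0 and 2 with number 6, 8 or 11 left out), with NDUFV2 of complex I the deepest at -0.44 ± 0.15. The risen proteasome share of 12.5% and the fallen respiratory share of 15.6% are near the 15.3% of all genes.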
